A study of Mus musculus with 10 samples.

Results

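The genes of glycolysis and of the cellular response to low oxygen were examined in 10 RNA-seq libraries of mouse tumour-associated macrophages. The set was named by symbol and held 34 genes, which were sorted by role into 17 glycolytic enzymes, 2 regulatory enzymes, 3 transporters, 10 hypoxia-only targets (induced by low oxygen but outside glycolysis), and the factor Hif1a with the cytokine Mif. These symbols matched 35 of the 21938 gene rows, because Aldoa stood on a pair of gene identifiers. Of the 35 rows, 33 had at least 10 reads in at least 3 libraries, as had 11564 rows in all, and were tested. Eno2, the neuronal enolase, and the second Aldoa row fell below that minimum. Their highest values were 3.95 on the log2 scale for Eno2, in 1 library of the Mertk group, and a level of 1.504 for the second Aldoa row, which was at 0 in 9 libraries.

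Glycolysis splits glucose into pyruvate in the cytosol, and Ldha reduces that pyruvate to lactate, which leaves the cell through monocarboxylate transporters. When oxygen falls, the prolyl hydroxylases encoded by the Egln genes stop marking HIF-1α (Hif1a) for destruction, and the factor binds DNA at a short core motif and activates most glycolytic enzymes together with targets such as Bnip3, Adm and Ankrd37. Macrophages in solid tumours are known for using this programme in poorly perfused regions, and macrophages activated by inflammatory signals can also raise glycolytic enzymes with oxygen present.

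All animals were C57BL/6 mice that carried tumour cells labelled PyMT, the polyoma middle T oncogene used to model breast cancer, in 2 mammary glands for 5 weeks, after which macrophages were sorted by flow cytometry. The control group had wild-type tumour cells in wild-type mice (n = 3). The second group had wild-type tumour cells in mice with a macrophage-specific knockout of MerTK, a receptor through which macrophages take up dying cells (n = 4). The third had tumour cells with a knockdown of Ptdss1, a phosphatidylserine synthase, in wild-type mice (n = 3). The labels do not give the promoter or recombinase behind the knockout, the knockdown construct, or whether the libraries came from separate animals, and the p-values can only reflect the variation between these libraries, which may be technical.

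The libraries held 10292592 to 25815071 assigned reads and 6995 to 11523 genes with at least 10 reads. Of genes with at least 10 reads in at least 7 of the other libraries, 31.5% fell short in Ptdss1 knockdown 1, 13.1% in control 2, 8.60% in Mertk KO 3, 5.75% in Mertk KO 4 and 0.108% to 1.28% in the other 6. Mertk itself lay at log2 levels of 9.26 to 10.97 in the control libraries and 8.95 to 10.63 in the libraries labelled Mertk KO (log2 fold change -0.32 ± 0.70, SE, adjusted p = 1.00), so its gene total does not separate them. The group is called by its label, and every direction given for it rests on that label. Ptdss1 was lowered in the tumour cells, which were not the cells sorted for sequencing. Its log2 levels in these libraries were 9.44 to 10.36 in control and 8.04 to 10.12 in Mertk KO. In Ptdss1 knockdown 1, 2 and 3 they were 1.85, 9.43 and 9.58, the first from 3 reads. All 12 macrophage markers were tested, with 19833 to 34294 CPM (reads of a gene scaled to a common library total) in sum. Levels below are the deposited log2 values, log2 of scaled reads plus 1, given in library order from replicate 1 upward. In bulk RNA, fewer cells of a type and less RNA per cell cannot be told apart.

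Promoter windows from 250 bases before to 50 bases after the gene start were found in RefSeq (GRCm38.p6) for 31 of the 34 genes, and Slc2a3, Bnip3l and Ndrg1 had none. The HIF core motif was searched as ACGTG and GCGTG on both strands, so that CACGT and CACGC count as matches and CACGTG counts once on each strand. At least 1 match was present in 36 of the 44 member windows (81.8%) and in 14380 of 32851 windows of all genes (43.8%). By window, a match was present in 8 of 9 for the hypoxia-only targets (88.9%) and 21 of 28 for the glycolytic enzymes (75%). Some genes had several windows. With a match in any window counted, all 8 hypoxia-only genes with a window had a match, as did 14 of the 17 glycolytic enzymes. The enzymes without 1 were Gpi1, Tpi1 and Eno2. No such share by gene was computed over all genes. A match describes letters in the window and is neither a shown binding site nor a cause. The 4 windows below are chosen examples and do not show how the groups differ. Bnip3 and Ankrd37 are the hypoxia-only targets with the most matches, and Pgk1 is an enzyme with matches. Tpi1, the enzyme with the smallest p-value in both comparisons with control, had none. Gapdh, Pkm and Eno1, the next by p-value in Mertk KO against control, had matches. Each printed window is written 5′ to 3′ on the gene's strand, with the motif letters in capitals.
Bnip3, chr7:138909457-138909756, minus strand, 5 matches: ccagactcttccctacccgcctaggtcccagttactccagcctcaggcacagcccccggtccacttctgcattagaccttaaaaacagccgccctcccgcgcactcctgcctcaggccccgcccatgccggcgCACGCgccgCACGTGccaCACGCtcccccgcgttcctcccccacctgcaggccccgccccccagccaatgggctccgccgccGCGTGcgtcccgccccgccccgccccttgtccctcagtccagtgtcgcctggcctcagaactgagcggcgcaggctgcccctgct
Ankrd37, chr8:45999801-46000100, minus strand, 4 matches: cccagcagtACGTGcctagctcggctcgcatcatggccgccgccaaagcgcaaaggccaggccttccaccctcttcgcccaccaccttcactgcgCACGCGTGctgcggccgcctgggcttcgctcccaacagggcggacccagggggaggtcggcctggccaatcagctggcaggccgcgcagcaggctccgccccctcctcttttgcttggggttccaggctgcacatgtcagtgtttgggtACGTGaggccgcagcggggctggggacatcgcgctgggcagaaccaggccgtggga
Pgk1, chrX:106186850-106187149, plus strand, 2 matches: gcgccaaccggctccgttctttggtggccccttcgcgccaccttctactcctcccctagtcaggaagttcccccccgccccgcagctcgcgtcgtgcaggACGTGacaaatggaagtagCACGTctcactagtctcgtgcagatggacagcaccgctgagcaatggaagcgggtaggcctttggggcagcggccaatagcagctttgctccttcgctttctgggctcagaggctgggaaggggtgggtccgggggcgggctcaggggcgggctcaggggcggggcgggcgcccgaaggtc
Tpi1, chr6:124814109-124814408, minus strand, 0 matches: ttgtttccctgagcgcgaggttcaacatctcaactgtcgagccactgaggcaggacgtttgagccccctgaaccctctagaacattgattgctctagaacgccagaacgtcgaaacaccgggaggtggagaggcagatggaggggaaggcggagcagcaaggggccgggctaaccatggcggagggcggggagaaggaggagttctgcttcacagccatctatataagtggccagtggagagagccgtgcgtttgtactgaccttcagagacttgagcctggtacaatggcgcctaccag

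Hexokinase, aldolase and enolase were each led by the same isozyme in every library, while phosphofructokinase was shared between Pfkl and Pfkp. Levels of different genes were compared as RPKM (reads scaled to exon length and to the library total), with the exon length taken as the union of annotated exons. Hk3, the hexokinase typical of myeloid cells, was the highest hexokinase in 10 of 10 libraries, with a median of 52.8 RPKM against 16.97 for Hk2 and 2.98 for Hk1. On the log2 scale Hk3 stood at 11.02, 12.05 and 11.28 in control libraries, at 12.46, 11.86, 11.63 and 11.63 in those labelled Mertk KO and 12.60, 11.03 and 11.10 in the Ptdss1 knockdown libraries, and the 3 groups overlapped. Hk2, the hexokinase most often induced by low oxygen, stood at 10.55, 10.76 and 11.85, then 12.15, 11.58, 10.25 and 10.76, then 10.84, 10.56 and 10.49 in the same order of groups. Its highest libraries were Mertk KO 1, control 3 and Mertk KO 2, while the Ptdss1 knockdown libraries lay close together at 10.63 ± 0.18 (SD, n = 3).

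Phosphofructokinase, the committing step, was shared between the liver-type Pfkl (median 15.0 RPKM) and the platelet-type Pfkp (11.8 RPKM), with Pfkl the higher in 7 libraries and Pfkp in 3. That order depends on the exon length used, 6675 bases for Pfkl and 13401 for Pfkp. In reads not scaled to length, Pfkp was the higher in every library except Ptdss1 knockdown 1. Pfkl read 9.44, 10.59 and 10.41 on the log2 scale in the control libraries, 11.23, 9.90, 10.60 and 10.91 in those labelled Mertk KO and 13.09, 10.11 and 10.65 in the Ptdss1 knockdown libraries. Ptdss1 knockdown 1 stood above every other library for Pfkl, and control 1 was the lowest. The muscle-type Pfkm was sparse, with a median of 1.54 RPKM, 0 reads in Mertk KO 3 and 4 in Ptdss1 knockdown 1.

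Aldoa, the muscle-type aldolase that dominates in most cells, exceeded the brain-type Aldoc in all 10 libraries, with medians of 377 and 15.8 RPKM. Aldoa had log2 levels of 12.92, 14.23 and 13.99 in control, 13.97, 13.40, 14.11 and 14.50 in Mertk KO and 14.91, 13.77 and 14.78 in Ptdss1 knockdown libraries. Aldoc had 6.97, 8.999 and 9.97, then 10.35, 9.08, 10.60 and 10.68, then 3.62, 9.45 and 10.74. Aldoc was thus far lower in Ptdss1 knockdown 1 than elsewhere and lowest among the rest in control 1, whereas Aldoa was highest in Ptdss1 knockdown 1. Eno1 carried at least 99.9% of the summed RPKM of Eno1 and Eno2 in every library, with a median of 168 RPKM. That share leaves out Eno3, which is outside the set and reached a log2 level of 8.30 in Ptdss1 knockdown 2. The log2 level of Eno1 was 13.51, 13.81 and 13.14 in control, 13.45, 13.23, 14.79 and 14.81 in Mertk KO and 14.62, 13.65 and 14.84 in Ptdss1 knockdown libraries. Mertk KO 3 and 4 and Ptdss1 knockdown 1 and 3 lay above all 3 control libraries for Eno1, and the other 3 libraries of those groups lay within the control range.

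**Figure D1:**
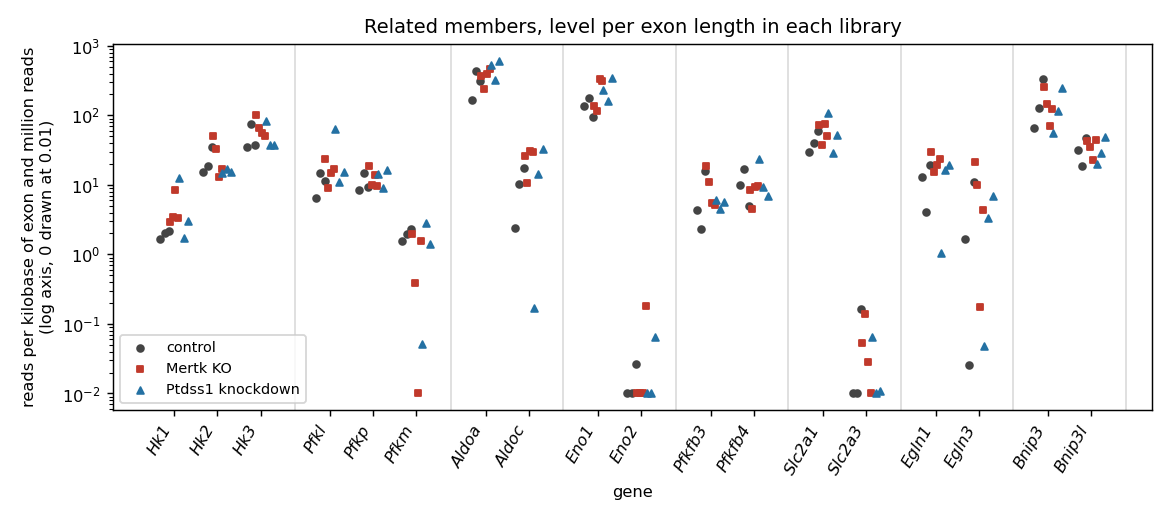
Level per exon length of related members in each library, on a log axis in RPKM, with 0 drawn at 0.01 and colour and shape marking the group. Hk3, Aldoa, Eno1, Slc2a1, Egln1 and Bnip3 were each the highest of their family in 10 of 10 libraries.

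Of the enzymes without an isozyme in the set, Tpi1, Gapdh and Gpi1 were among those with the smallest p-values in the comparisons below. Tpi1, triose-phosphate isomerase, had log2 levels of 12.84, 12.78 and 13.42 in control, 13.86, 13.39, 13.74 and 13.96 in Mertk KO and 13.95, 13.29 and 14.54 in Ptdss1 knockdown libraries. Control 3 lay just above the lowest Mertk KO library and the lowest Ptdss1 knockdown library, and was the control library that closed the gap between the groups. Gapdh, the dehydrogenase that makes NADH in glycolysis, had 12.54, 12.86 and 13.08 in control, 13.42, 12.71, 13.84 and 13.69 in Mertk KO and 13.12, 13.36 and 13.98 in Ptdss1 knockdown libraries. All 3 Ptdss1 knockdown libraries exceeded all 3 control libraries for Gapdh, the closest pair being Ptdss1 knockdown 1 and control 3, while Mertk KO 2 fell within the control range. Gpi1, glucose-phosphate isomerase, had 11.67, 11.82 and 12.79, then 12.39, 12.12, 13.26 and 12.77, then 13.83, 12.34 and 13.09, and was highest in Ptdss1 knockdown 1 and Mertk KO 3.

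Pkm, the pyruvate kinase of most non-hepatic cells, had log2 levels of 13.22, 14.39 and 13.50 in control, 14.11, 13.57, 14.97 and 14.83 in Mertk KO and 15.79, 13.71 and 14.37 in Ptdss1 knockdown libraries. Control 2 lay above Mertk KO 1 and 2 and above Ptdss1 knockdown 2 and 3, so the ranges overlapped. Hk1, the housekeeping hexokinase, had 7.86, 8.06 and 8.38 in control, 8.55, 8.85, 10.11 and 8.91 in Mertk KO and 11.11, 7.78 and 8.70 in Ptdss1 knockdown libraries. All 4 Mertk KO libraries exceeded the 3 control libraries for Hk1, by least in Mertk KO 1, and the Ptdss1 knockdown group held both the highest and the lowest library of all 10. For the remaining enzymes the log2 range over the 10 libraries was 1.29 for Pgam1 (phosphoglycerate mutase), 1.43 for Ldha (lactate dehydrogenase A), 1.51 for Pgk1 (phosphoglycerate kinase) and 1.11 for Pfkp. The range of Gapdh, at 1.44, was similar. Processed pseudogene copies of Gapdh, Ldha, Pgk1, Tpi1, Eno1, Pgam1, Aldoa and Mif are common in the mouse genome, so reads of these genes may have been shared with such copies and their levels are uncertain to that extent.

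Around the pathway, Slc2a1 had the higher RNA level of the glucose transporters in the set, and Slc2a3 was close to undetected. Slc2a1, the basal glucose transporter, had a median of 51.3 RPKM, and Slc2a3, the high-affinity neuronal transporter, had 0 to 29 reads per library. The log2 level of Slc2a1 was 10.72, 11.05 and 11.84 in control, 11.92, 11.00, 12.00 and 11.57 in Mertk KO and 12.90, 10.56 and 11.48 in Ptdss1 knockdown libraries, with the highest and the lowest library both in the Ptdss1 knockdown group. Slc16a3, the lactate exporter, ranged over 3.04 log2 units, from control 1 up to Ptdss1 knockdown 1. Pfkfb3 and Pfkfb4 make and degrade fructose 2,6-bisphosphate, the activator of phosphofructokinase. Pfkfb4 read 9.60, 10.31 and 8.77, then 9.26, 8.42, 9.46 and 9.67, then 11.21, 9.43 and 9.04, and it was the higher of the pair per length in 7 libraries. The 3 libraries in which Pfkfb3 was the higher were control 3, Mertk KO 1 and Mertk KO 2, where Pfkfb3 made up 76.1%, 69.1% and 71.0% of their summed RPKM.

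The hypoxia-only targets differed between libraries of the same group far more than between groups. Bnip3, a mitophagy receptor and the most abundant of them at a median of 125 RPKM, had log2 levels of 11.23, 12.10 and 13.73 in control, 13.11, 12.34, 11.26 and 12.23 in Mertk KO and 11.33, 11.92 and 13.14 in Ptdss1 knockdown libraries. Its relative Bnip3l had a median of 33.6 RPKM and a log2 range of 1.53. Ndrg1, a stress-response gene, had 8.91, 8.55 and 12.06 in control, 11.22, 10.36, 9.05 and 8.48 in Mertk KO and 5.53, 9.46 and 9.86 in Ptdss1 knockdown libraries. For Bnip3 and Ndrg1 alike, control 3 was the highest library of all 10, Mertk KO 1 was the highest of its group and Ptdss1 knockdown 3 was the highest of its group.

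Ankrd37, a small ankyrin-repeat protein gene, had log2 levels of 7.99, 4.97 and 10.41 in control, 9.67, 9.93, 7.71 and 9.54 in Mertk KO and 5.66, 8.68 and 9.23 in Ptdss1 knockdown libraries. Higd1a, a mitochondrial protein gene, had 10.81, 10.24 and 12.81, then 12.27, 11.94, 10.93 and 9.83, then 10.51, 11.46 and 10.84. Control 3 was again the highest library for each, and the lowest was control 2 for Ankrd37 and Mertk KO 4 for Higd1a. Egln1 (PHD2), the main oxygen sensor of the HIF pathway, was the higher of the Egln pair per length in all 10 libraries, at a median of 17.8 RPKM against 3.87 for Egln3 (PHD3). Egln1 had 9.53, 7.81 and 10.25 in control, 10.66, 9.77, 10.09 and 10.48 in Mertk KO and 6.29, 9.81 and 10.10 in Ptdss1 knockdown libraries. The 4 Mertk KO libraries were the most uniform group for Egln1, while control 2 and Ptdss1 knockdown 1 were low.

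Egln3, the more strongly induced hydroxylase, had log2 levels of 6.20, 1.03 and 9.05 in control, 9.72, 8.69, 3.05 and 7.65 in Mertk KO and 1.85, 7.07 and 8.19 in Ptdss1 knockdown libraries, which in reads ran from 1 in control 2 to 722 in control 3. Adm, which encodes the vasodilator adrenomedullin, had 0 reads in 5 libraries and 47 to 427 in the other 5, which were control 3, Mertk KO 1 and 2, and Ptdss1 knockdown 2 and 3. Every group therefore held libraries with and without Adm reads. Ero1l, an oxidase of protein folding, ranged over 1.90 log2 units with its highest library in control 3. Pdk1, a pyruvate dehydrogenase kinase, departed from the other targets: it was highest in Ptdss1 knockdown 1 at 11.07 and lowest in control 1 at 7.36.

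**Figure D2:**
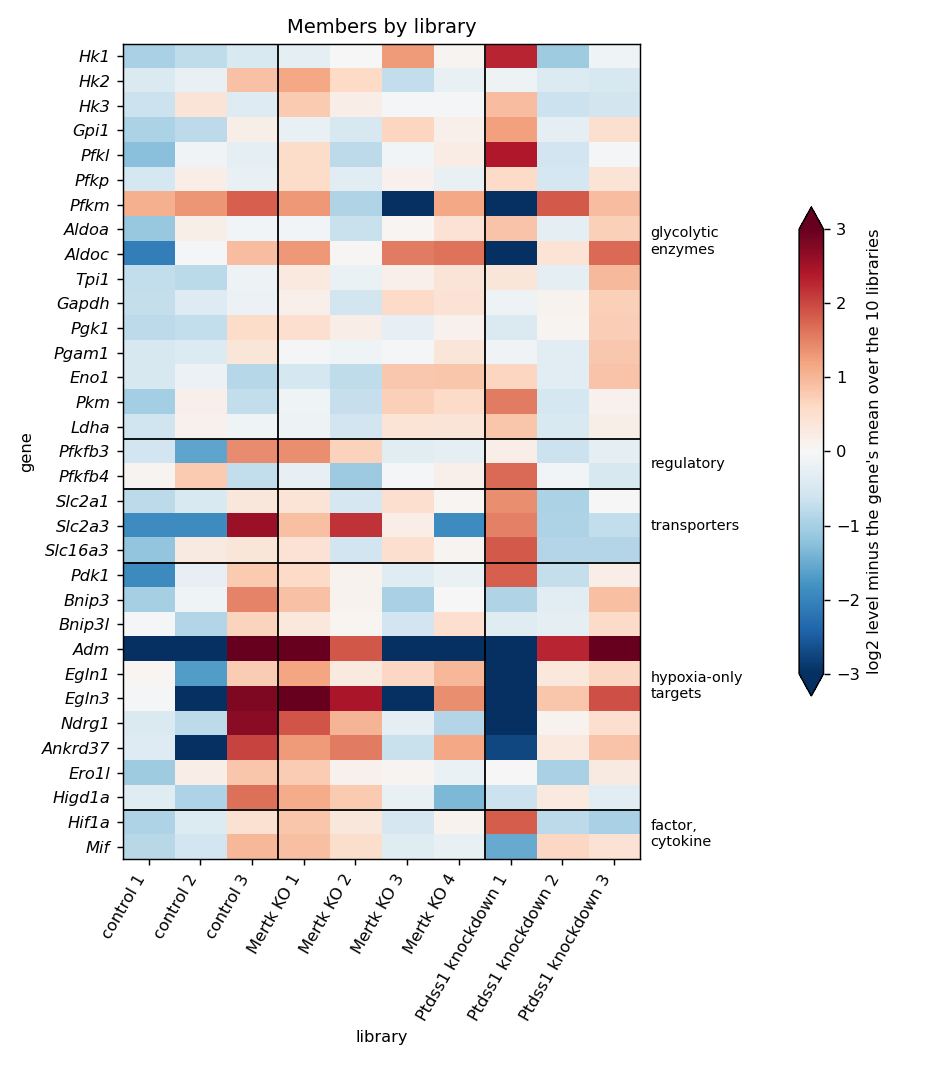
Log2 level of each of the 33 tested members minus its own mean over the 10 libraries, by role (rows) and library (columns), with colours ending at 3 log2 units either way. All 10 hypoxia-only targets were above their means in control 3, Mertk KO 1 and Mertk KO 2, and Ptdss1 knockdown 1 was high for Hk1 and Pfkl and low for Aldoc, Egln3 and Ndrg1.

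All 10 hypoxia-only targets were above their own mean in control 3, in Mertk KO 1 and in Mertk KO 2, and 9 of 10 in Ptdss1 knockdown 3. The counts were 6 in Ptdss1 knockdown 2, 4 in Mertk KO 4, 2 in Mertk KO 3, and 1 each in control 1, control 2 and Ptdss1 knockdown 1. Of all tested genes, 60.3%, 61.9%, 64.8% and 65.3% were above their mean in control 3, Mertk KO 1, Mertk KO 2 and Ptdss1 knockdown 3. The share was 60% in Ptdss1 knockdown 2, 53.9% in Mertk KO 4, 50.8% in Mertk KO 3, 60.5% in control 1, 47.1% in control 2 and 39.6% in Ptdss1 knockdown 1. Within the control group, control 3 was the highest library for 10 of 10 targets, against 33.3% of all tested genes. Mertk KO 1 led its group for 8 of 10 (20.9% of all tested genes) and Ptdss1 knockdown 3 led its group for 8 of 10 (30.3%).

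The mean log2 level of the 10 targets per library ran from 7.54 to 10.99 in control, from 8.29 to 10.77 in Mertk KO and from 7.42 to 10.21 in Ptdss1 knockdown libraries. Group means were 8.95 ± 1.81 (SD, n = 3), 9.52 ± 1.10 (SD, n = 4) and 9.003 ± 1.43 (SD, n = 3), so the groups were closer to each other than the libraries within each. The median gene among the targets had 8.64% of its variance between groups, against 19.5% over all tested genes. The median within-group SD was 1.20 log2 units, against 1.64 over all tested genes and 0.61 for the 16 tested glycolytic enzymes.

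The glycolytic enzymes did not follow the order of the hypoxia-only targets. Averaged as deviations from each gene's own mean, the targets stood at 1.80 in control 3 and the enzymes at 0.08. In Ptdss1 knockdown 1 the targets stood at -1.77, the lowest of all libraries, and the enzymes at 0.14. Control 2 was low for the targets (-1.65) and near the middle for the enzymes (-0.13). Control 1 was low for both (-0.86 and -0.73), and it was the lowest library for 9 of the 16 enzymes and for 14 of 16 within its group, against 24.1% of all tested genes. Mertk KO 1 (1.57 and 0.32) and Ptdss1 knockdown 3 (1.01 and 0.46) were high for both, and Mertk KO 2 was high for the targets (0.83) and low for the enzymes (-0.31).

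Detection differed between libraries in a partly similar order. Ptdss1 knockdown 1, control 2, Mertk KO 3 and Mertk KO 4, which missed the largest shares of commonly seen genes, ranked 10, 9, 8 and 6 of 10 for the hypoxia-only targets, while control 1, which missed 1.26%, ranked 7. Among the 4 targets with a mean log2 level of at least 10 (Bnip3, Bnip3l, Ero1l and Higd1a), which had at least 10 reads in every library, the mean deviation was 1.16 in control 3, 0.77 in Mertk KO 1, 0.35 in Ptdss1 knockdown 3 and 0.27 in Mertk KO 2, and it was below 0 in the other 6 libraries. Among the 13 enzymes with a mean log2 level of at least 10, the mean deviation was 0.66 in Ptdss1 knockdown 1, the highest of all libraries. It was -0.08 in control 3. The part of detection in the pattern was not otherwise tested.

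**Figure D3:**
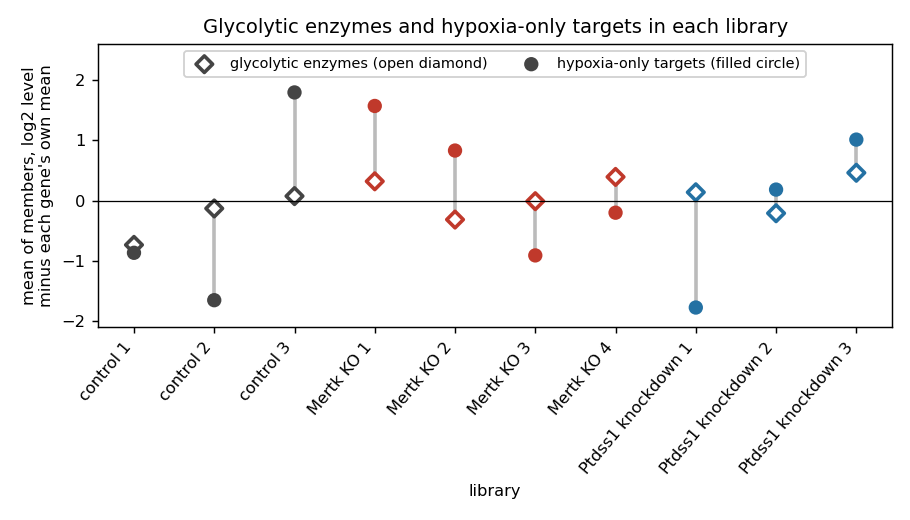
Mean deviation of the 16 tested glycolytic enzymes (open diamonds) and the 10 hypoxia-only targets (filled circles) from each gene's own mean, in log2 units, by library, with control in grey, Mertk KO in red and Ptdss1 knockdown in blue. The targets ran from -1.77 to 1.80 and the enzymes from -0.73 to 0.46, and each group held libraries on either side of 0 for the targets.

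Hif1a RNA, whose protein is controlled mainly by its stability, showed another order. It was highest in Ptdss1 knockdown 1 at 14.07, where the hypoxia-only targets were lowest, and next in Mertk KO 1 at 13.07. Its group means were 11.95 ± 0.70 (SD, n = 3) in control, 12.43 ± 0.55 (SD, n = 4) in Mertk KO and 12.27 ± 1.56 (SD, n = 3) in Ptdss1 knockdown libraries. Mif, a macrophage cytokine that is also a HIF target, was the most abundant member per length, with a median of 1028 RPKM. It was highest in control 3 at 14.47 and lowest in Ptdss1 knockdown 1 at 11.96, the same extremes as the mean of the hypoxia-only targets.

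The libraries labelled Mertk KO were compared with control to ask whether the receptor's loss in macrophages went with a different level of these genes. Of the 33 tested members, 28 had a higher mean in Mertk KO, against 50.9% of all tested genes, among them 15 of 16 glycolytic enzymes and 7 of 10 hypoxia-only targets, but no member passed an adjusted p of 0.05 in limma. In the same comparison 2 of 11564 genes passed (0.0173%). No member had an unadjusted p under 0.05 (0 of 33, against 2.06% of all tested genes), and limma-voom also called none. Tpi1 had the smallest p among members: its mean was 13.74 ± 0.25 (SD, n = 4) in Mertk KO and 13.01 ± 0.36 (SD, n = 3) in the controls, which made a log2 fold change of 0.72 ± 0.39 (SE) (95% interval -0.09 to 1.53). Gapdh followed at 0.59 ± 0.39 (SE), Pkm at 0.67 ± 0.49 (SE), Eno1 at 0.58 ± 0.46 (SE) and Egln1 at 1.05 ± 0.82 (SE), each with overlapping libraries and an adjusted p of 1.00.

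Hk1, at 1.00 ± 0.83 (SE), was the only member with every Mertk KO library above every control library (1 of 33, against 3% of all tested genes), no member had the reverse (0 of 33, against 2.62%), and its 95% interval was -0.73 to 2.74. The median log2 fold change was 0.49 for the 16 enzymes and 0.35 for the 10 targets, against 0.02 over all tested genes. These medians depended on single libraries. Without control 1 the enzyme median was 0.23 and the target median -0.26. Without control 2 the targets' median was -0.24, and without control 3 it was 1.08. Without Mertk KO 1 the enzyme median was 0.34 and the target median 0.05. Among single members, Pkm was at 0.42 without control 1, Egln1 at 0.36 without control 2 and Eno1 at 0.34 without Mertk KO 4. Markers of other cells differed between these groups too. The 10 epithelial or tumour markers, of which Krt19, Cldn3 and Cldn7 had under 10 reads in every library, summed to 65.9 to 160 CPM in Mertk KO and 21.3 to 33.0 in control libraries. The T and NK cell markers (9 of 10 in the tables, Ncr1 under 10 reads throughout) summed to 14.6 to 55.5 and 117 to 230, and the 12 cell cycle genes to 177 to 287 and 264 to 721. The 6 dendritic cell markers summed to 509 CPM in Mertk KO 3, 0 to 9.15 in the other Mertk KO libraries and 7.59 to 12.5 in control. The 8 fibroblast markers, of which Lum and Fbln1 had under 10 reads in every library, summed to 61.8 CPM in Mertk KO 4, 24.0 in Mertk KO 2, at most 0.16 in Mertk KO 1 and 3, and 1.23 to 3.59 in control. Their part in the values above was not tested.

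The Ptdss1 knockdown libraries were compared with control to ask whether lowering the synthase in the tumour cells went with a change in the macrophages. The enzymes mostly had positive fold changes and the hypoxia-only targets were evenly divided: 24 of 33 members (48% of all tested genes), 13 of 16 enzymes and 5 of 10 targets had a higher mean, with medians of 0.55 and -0.09, against -0.05 over all tested genes. No gene of the 11564 tested (0%) passed an adjusted p of 0.05 in limma, 335 (2.9%) had an unadjusted p under 0.05, and limma-voom called 0. Tpi1 was the only member with an unadjusted p under 0.05, and its adjusted p was 0.841. Its mean was 13.92 ± 0.63 (SD, n = 3) against 13.01 ± 0.36 (SD, n = 3), a log2 fold change of 0.91 ± 0.41 (SE) (95% interval 0.04 to 1.78). Gpi1 was at 1.00 ± 0.49 (SE), Eno1 at 0.88 ± 0.49 (SE), Pkm at 0.92 ± 0.52 (SE), Pfkl at 1.14 ± 0.66 (SE) and Aldoa at 0.77 ± 0.45 (SE).

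Gapdh (0.66 ± 0.42 (SE), adjusted p = 0.841 in limma) was the only member with every Ptdss1 knockdown library above every control library, 1 of 33 against 3.32% of all tested genes, and none had the reverse (0 of 33 against 3.6%). Several of these values rested on Ptdss1 knockdown 1, the library with the fewest detected genes. Without it Pfkl was at 0.24, Pkm at 0.33 and Gpi1 at 0.63, and the median of the hypoxia-only targets was 0.22. That median was -0.62 without control 2 and 0.44 without control 3. Without control 1 the enzyme median was 0.30 and Aldoa was at 0.38. Among the targets the estimates ran from -1.56 ± 1.13 (SE) for Ndrg1 to 2.02 ± 2.66 (SE) for Adm, and Adm had reads in 2 of 3 knockdown libraries and 1 of 3 control libraries. Summed markers overlapped between these groups for epithelial or tumour cells (0.26 to 59.9 CPM in knockdown, 21.3 to 33.0 in control). So did T and NK cells (64.1 to 198, 117 to 230) and the cell cycle (83.8 to 685, 264 to 721). Neutrophil markers, of which S100a9 and Ly6g had under 10 reads in every library, overlapped too (38.1 to 274, 41.8 to 98.8). In Ptdss1 knockdown 2, B cell markers summed to 42.4 CPM, dendritic cell markers to 119 and fibroblast markers to 18.96. Control sums were at most 2.06, 12.5 and 3.59. The same sums were 0.043, 0.085 and 0.085 in Ptdss1 knockdown 1, and 9.03, 39.8 and 1.20 in Ptdss1 knockdown 3. The part of these markers was not tested.

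**Figure D4:**
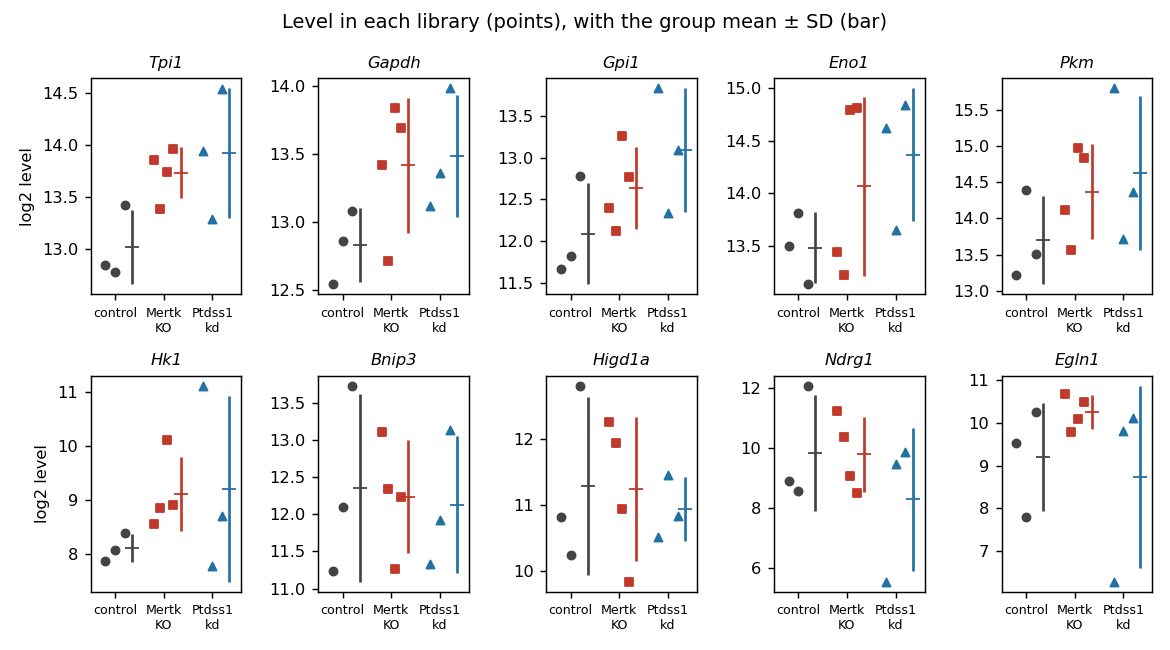
Log2 level of 10 members in each library, by group, with the group mean and SD as a bar beside the points and a separate scale for each gene. Gapdh libraries of the Ptdss1 knockdown group and Hk1 libraries of the Mertk KO group lay above all control libraries, and control 3 was the highest library for Bnip3, Higd1a and Ndrg1.

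Mertk KO and Ptdss1 knockdown were compared directly, and the subgroups had medians of opposite sign, as in Ptdss1 knockdown against control. Of the 33 members 17 were higher in Mertk KO, against 54% of all tested genes. The enzymes were lower in Mertk KO for 12 of 16 genes (median -0.15), and the hypoxia-only targets were higher for 8 of 10 (median 0.37), against a median of 0.11 over all tested genes. No gene of the 11564 tested (0%) passed an adjusted p of 0.05 in limma, 431 (3.73%) had an unadjusted p under 0.05, and limma-voom called 0. No member had an unadjusted p under 0.05 or separate libraries in either direction, against 2.91% of all tested genes with every Mertk KO library higher and 2.32% with every one lower. Egln1 had the smallest p among members (adjusted p = 0.805 in limma), with means of 10.25 ± 0.40 (SD, n = 4) and 8.73 ± 2.12 (SD, n = 3) and a log2 fold change of 1.52 ± 0.82 (SE) (95% interval -0.21 to 3.25).

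Aldoc was at 2.24 ± 1.31 (SE), Ndrg1 at 1.497 ± 1.06 (SE), Ankrd37 at 1.36 ± 1.21 (SE), Hk2 at 0.55 ± 0.51 (SE) and Aldoa at -0.49 ± 0.42 (SE). The larger of these rested on Ptdss1 knockdown 1, the lowest library for Egln1, Aldoc and Ndrg1. Without it Egln1 was at 0.30, Aldoc at 0.08, Ndrg1 at 0.12 and Ankrd37 at 0.26, and the medians were 0.00 for the enzymes and 0.11 for the targets. Aldoa was at -0.28 without the same library, and Hk2 at 0.23 without Mertk KO 1. Summed epithelial or tumour markers (65.9 to 160 CPM in Mertk KO, 0.26 to 59.9 in Ptdss1 knockdown) and T and NK cell markers (14.6 to 55.5, 64.1 to 198) separated these groups. Their part was not tested. The 3 comparisons share libraries, so their values are set side by side and were not correlated.

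**Figure D5:**
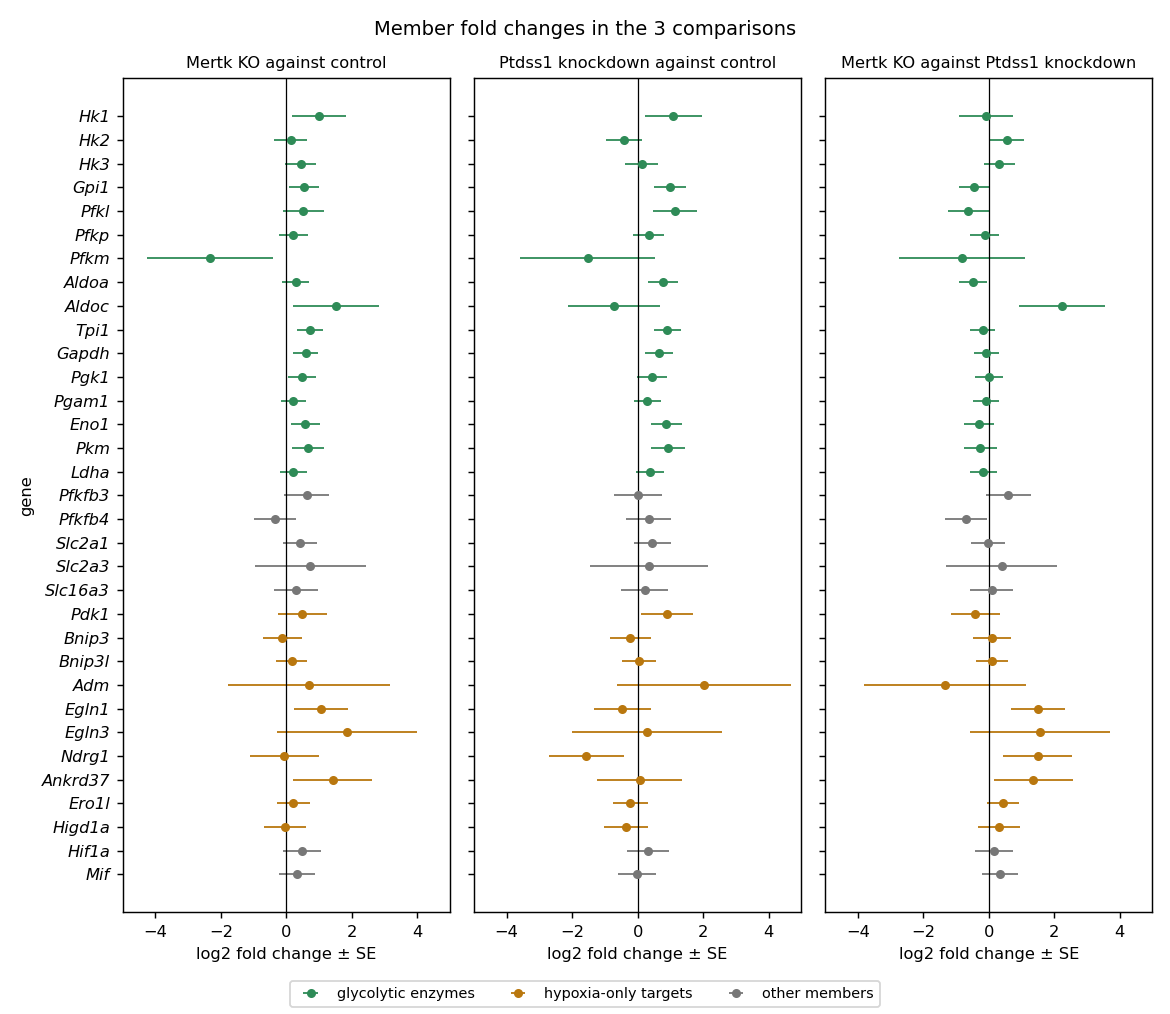
Log2 fold change ± SE of each tested member in the 3 comparisons, with enzymes in green, hypoxia-only targets in orange and other members in grey. Most enzymes lie right of 0 against control and left of 0 between Mertk KO and Ptdss1 knockdown, and the widest bars belong to Adm, Egln3 and Pfkm, which were sparse or near 0 in some libraries.

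Other genes of the pathways gave no call either. Of 32 further genes of glucose and pyruvate metabolism, 21 were tested, and 13, 14 and 11 had a positive log2 fold change in Mertk KO against control, Ptdss1 knockdown against control and Mertk KO against Ptdss1 knockdown, with medians of 0.73, 0.36 and 0.03. Of 26 further genes of the hypoxia pathway, 22 were tested, with 15, 8 and 17 positive and medians of 0.47, -0.47 and 1.24. Over all tested genes 50.9%, 48% and 54% were positive, with medians of 0.02, -0.05 and 0.11. Ptdss1 knockdown 1, with the fewest detected genes, stood at 0 for Epas1, 1.45 for Egln2 and 2.99 for Vhl. It was the highest library for Kdm3a at 11.26 and Kdm4b at 11.6. The part of this library in the list medians was not tested. Hmox1, the heme-degrading oxygenase, had log2 levels of 10.64, 8.60 and 11.46 in control, 11.65, 10.84, 12.04 and 11.76 in Mertk KO and 11.40, 11.21 and 11.89 in Ptdss1 knockdown libraries. Control 2 was the low library, and the log2 fold changes against control were 1.34 ± 0.57 (SE) for Mertk KO and 1.27 ± 0.61 (SE) for Ptdss1 knockdown. Without control 2 they were 0.52 and 0.45.

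Arg1, the arginase of alternatively activated macrophages, had log2 levels of 13.60, 14.91 and 15.74 in control, 16.33, 15.84, 16.57 and 15.51 in Mertk KO and 12.999, 13.98 and 15.80 in Ptdss1 knockdown libraries. The log2 fold change of Mertk KO was 1.31 ± 0.58 (SE) against control and 1.80 ± 0.58 (SE) against Ptdss1 knockdown, with adjusted p of 1.00 and 0.805 in limma. The first was 0.74 without control 1, and the second 1.17 without Ptdss1 knockdown 1. Hilpda, a lipid-droplet protein gene induced by hypoxia, had 10.60, 11.16 and 13.90, then 13.54, 12.34, 12.27 and 11.64, then 6.37, 10.86 and 11.64, with a log2 fold change of 2.83 ± 1.12 (SE) between Mertk KO and Ptdss1 knockdown and no overlap, although the closest pair were both at 11.64. Without Ptdss1 knockdown 1, its lowest library, the value was 1.20. Epas1, which encodes HIF-2α, had 2.34, 1.03 and 6.96, then 5.90, 6.92, 7.35 and 7.31, then 0, 4.61 and 4.03, and its log2 fold changes were 3.42 ± 1.88 (SE) against control and 3.99 ± 1.88 (SE) against Ptdss1 knockdown. The Mertk KO libraries were uniform for Epas1 and overlapped control 3 alone, and its fold changes were 2.22 without control 2 and 5.18 without control 3 against control, and 2.55 without Ptdss1 knockdown 1 against the knockdown.

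Of the other pathway genes with the smallest p-values, Pfkfb1, a further enzyme that makes and degrades fructose 2,6-bisphosphate, had log2 levels of 0, 0 and 4.27 in control, 3.29, 4.42, 6.79 and 6.79 in Mertk KO and 8.41, 1.53 and 5.41 in Ptdss1 knockdown libraries. It was at 3.90 ± 1.97 (SE) in Mertk KO against control, and control 3 alone of the controls was above 0. Without control 3 the value was 5.32 and without either other control 3.19. Pdk2, a kinase of the same kind as Pdk1, had 5.17, 6.17 and 6.51, then 5.67, 6.07, 7.65 and 7.40, then 0, 3.09 and 5.17, and was at 3.94 ± 1.70 (SE) in Mertk KO against Ptdss1 knockdown. Its lowest library was Ptdss1 knockdown 1, without which the value was 2.57.

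Slc2a6, a sugar transporter gene, had log2 levels of 7.796, 0 and 4.65 in control, 6.38, 6.38, 9.63 and 5.91 in Mertk KO and 11.65, 8.02 and 6.43 in Ptdss1 knockdown libraries, and was at 4.55 ± 1.98 (SE) in Ptdss1 knockdown against control. Gbe1, the glycogen branching enzyme, had 7.30, 2.37 and 7.85, then 9.13, 7.24, 6.91 and 7.71, then 10.90, 7.53 and 7.97, and was at 2.95 ± 1.54 (SE). Control 2 was the lowest library for each, and without it Slc2a6 was at 2.48 and Gbe1 at 1.22, while without Ptdss1 knockdown 1, the highest for each, they were at 3.08 and 1.90. Ldhb, the other main lactate dehydrogenase subunit, had 10.54, 8.14 and 9.77, then 9.39, 9.25, 8.93 and 9.28, then 3.27, 9.28 and 8.84, and was at -2.35 ± 1.23 (SE). Ptdss1 knockdown 1 was far below all other libraries for Ldhb, and without it the value was -0.43. These 5 genes had adjusted p of at least 0.805 in limma.

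Vegfa, the angiogenic HIF target, was added after its values were seen, and had log2 levels of 10.60, 11.12 and 13.02 in control, 13.13, 11.61, 11.67 and 10.96 in Mertk KO and 9.38, 10.97 and 11.76 in Ptdss1 knockdown libraries. Control 3 and Mertk KO 1 were its highest libraries and Ptdss1 knockdown 1 its lowest, as for the mean of the hypoxia-only targets. The further hypoxia genes did not all share this order. Car9 was highest in Ptdss1 knockdown 1 at 9.57 and lowest in Mertk KO 1 at 6.33. Kdm3a was also highest in Ptdss1 knockdown 1, at 11.26.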

How the data were processed

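RNA of sorted macrophages was made into cDNA with 16 PCR cycles, per the labels' protocols, and sequenced without strand information. The submitters' processing notes name STAR, RSEM and mm10, without versions. The deposited values were log2 of reads over a library factor, plus 1. Undoing the log gave whole reads for 100% of values within 0.01 read, from which depth, filters and CPM were computed. Intervals cover the spread between libraries only.

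Rows with at least 10 reads in at least 3 libraries were fitted with limma 3.58.1 (trend, robust) in R 4.3.3, with a mean per group over all 10 libraries, two-sided, Benjamini-Hochberg adjusted over all 11564 rows. The procedure was tested on simulated data. The planted changes were larger than any member fold change here, so that test does not show whether changes of member size would be called. Alternatives were other filters, scaling, a pseudocount of 8, limma-voom, array weights and leaving out each library. The values were not counts as deposited, so no count model was the main test.

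Members and lists were chosen with earlier results of these data known. Every library's value is printed for the 6 members with the smallest p-value in each comparison and the highest isozyme per length, and up to 4 other pathway genes per comparison. Higd1a and Egln3 were added after their values were seen. Exon lengths came from GENCODE and promoters from RefSeq.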

Additional observations from a re-analysis of the deposited data

How the results depend on the processing

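No member was called in any comparison under any alternative tried. Some medians changed sign: the target median in Mertk KO against control was 0.35, and -0.26 and -0.24 without control 1 or control 2. The enzyme minus target median there was 0.14, and -0.12 with array weights and -0.53 without control 3. In Ptdss1 knockdown against control the target median was -0.09, and 0.39 with array weights. The count of genes called in Mertk KO against control was 2, and it was 0 without a filter on low reads, 0 with at least 50 reads in at least 3 libraries, 25 with array weights, and 0 to 4 when 1 library was left out. Array weights gave 2 calls in Ptdss1 knockdown against control and 35 in Mertk KO against Ptdss1 knockdown, each against 0, and the latter had 1 without the 2 libraries with the fewest detected genes. Array weights also put 4, 9 and 8 of 33 members under an unadjusted p of 0.05 in the 3 comparisons. Of all 11564 tested genes, 826, 542 and 1209 were under it. The smallest adjusted p of a member was then 0.495, 0.715 and 0.061 in limma. The same weights turned Aldoc in Mertk KO against Ptdss1 knockdown from 2.24 to -0.56. The cause was not tested. With members of a mean log2 level of at least 10 only, chosen after seeing the data, the difference of the enzyme and target medians was 0.41, 0.88 and -0.37 in the 3 comparisons. Leaving out 1 library, Egln1 in Mertk KO against control ran from 0.36 (without control 2) to 1.58 (without control 3), and Tpi1 in Ptdss1 knockdown against control from 0.60 to 1.23. No paired analysis was possible because the labels give no replicate numbers shared between groups. Sparse members (Adm, Egln3, Pfkm, Slc2a3) are limited by detection, which differs between libraries.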
